A study of Drosophila melanogaster with 4 samples.

Results

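The cuticle protein genes of *Drosophila melanogaster* were followed in testes of WT flies and of flies without *nsr* (*CG3875*), a male-expressed gene of the *kep1* family. Members were the genes with a probe set of their own whose annotated symbol begins with Cpr and a cytological number, Lcp, Ccp84, Twdl or Acp65A, or is Pcp. Where a gene had several such probe sets, the brightest on average stood for it. This gave 102 of the 11983 genes that a probe set of their own represents: 66 *Cpr*, 24 Tweedle (*Twdl*), 7 *Lcp*, 3 *Ccp84A*, *Pcp* and *Acp65Aa*.

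The cuticle of an insect is a mesh of chitin fibres and cuticle proteins that ectodermal epithelia such as epidermis, tracheae and the hindgut lay down at each moult. *Cpr*, *Lcp*, *Ccp84A*, *Pcp* and *Acp65Aa* proteins belong to the family that carries the Rebers and Riddiford consensus, a chitin-binding domain, whereas Tweedle proteins form a separate family named after the stout body shape of a *TwdlD* mutant. Many of these genes lie in tandem clusters, and single genes of a cluster are used at different moults and in different parts of the body. The testis itself consists of germ cells in cysts of somatic cells inside a sheath of muscle and pigment cells, and is not known to lay down cuticle, while the ejaculatory duct further along the male tract is ectodermal.

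Both genotypes were males aged 0 to 2 days, and the seminal vesicles had been cut away from the testes. The *nsr* mutant carries a null allele made by gene targeting, and the WT flies are a recombinant line obtained in the same targeting, chosen to share the genetic background; each genotype is thus a single line. RNA of each genotype was extracted and hybridised independently 2 times to a 1-colour Affymetrix array, giving *nsr* mutant 1 and 2 and WT 1 and 2. Nothing in the labels says that the extractions came from separate flies, so the p-values below measure only the spread between these arrays, which may be technical.

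The targeted gene, *nsr*, had intensities of 23.2 and 27.6 on the mutant arrays and of 549.0 and 553.6 on the WT arrays. Its difference was the only one of 18769 probe sets to pass (limma, Benjamini-Hochberg adjusted p = 0.00837). Array medians lay between 12.1 and 15.7. The testis germline markers, from *bam* and *aly* to *Mst87F* and *Mst98Ca*, exceeded the negative controls on each of the 4 arrays in 7 of 7 genes, with summed intensities of 8514 and 9459 in mutants and of 9678 and 10460 in WT. The negative controls were 70 probe sets without a fly target, and the highest of them on each array, between 5.88 and 8.92, served as the limit of a measured level.

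Most cuticle genes had no measured level in testes. On all 4 arrays, 20 of the 102 members (19.6%) exceeded the highest negative control, against 68.5% of all genes. Another 28 passed on 1 to 3 arrays, and 54 (52.9%) on none, against 19.4% of all genes. The intensities of these 54 never exceeded 8.21, so only a bound can be given for them. Members that passed on all 4 arrays were few in the larger subfamilies: 13 of 66 *Cpr* genes, 4 of 24 Tweedle genes, 1 of 7 *Lcp* genes (*Lcp65Aa*), 1 of 3 *Ccp84A* genes (*Ccp84Ae*) and *Pcp*. *Acp65Aa* passed on *nsr* mutant 2 and WT 2 only.

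**Figure D1:**
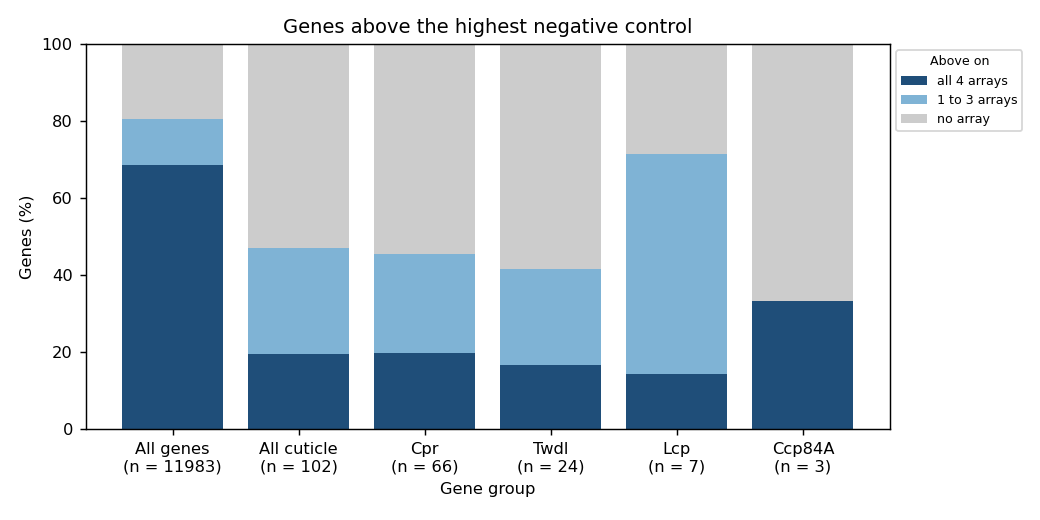
Share of genes (percent) that exceeded the highest negative control on all 4 arrays, on 1 to 3 arrays or on none, for all genes, all cuticle genes and the 4 subfamilies with more than 1 member. 68.5% of all genes and 19.6% of cuticle genes passed on all 4 arrays.

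The limit was not equally strict on each array. Members above it numbered 22 on *nsr* mutant 1, 44 on *nsr* mutant 2, 28 on WT 1 and 32 on WT 2, and *nsr* mutant 2 had the lowest limit, 5.88. Of the 16 members that passed on a single array, 13 did so on *nsr* mutant 2. With the strictest limit of any array applied to all 4, 19 members remained above it instead of 20. No member was above the limit on both arrays of a genotype and on neither array of the other.

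Values close to the limit are of little use for a single gene. *Cpr49Ac*, *Cpr47Eg* and *Cpr92F* had means just above the mean limit, at 1.05, 1.13 and 1.25 times it, and *Cpr5C*, *Cpr72Eb* and *Lcp65Ad* just below, at 0.992, 0.975 and 0.952 times. *Cpr5C*, for example, read 8.43 and 5.77 in mutants and 7.74 and 10.1 in WT, above the limit on WT 2 alone.

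Within most clusters, few or no members stood above the controls. The clusters are not complete here. Of 122 reference genes that fit the rule, 20 had no probe set of their own, and 7 of these were named by a shared probe set. The symbols of 76 members give a cytological band, and 13 bands held 2 or more members, 56 in all. In 6 of these 13 bands exactly 1 member was above the controls on all 4 arrays, in 5 bands no member was, and there were 2 of 3 in 67F and both of 2 in 97E. The bands without any were 50C, 62B, 64A, 72E and 76B. Of the 20 members alone in their band, 5 passed: *Cpr31A*, *Cpr51A*, *Cpr56F*, *Cpr66Cb* and *Cpr92A*.

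In band 47E, *Cpr47Ee* was the 1 of 7 members to pass on all 4 arrays. Its neighbours on either side, *Cpr47Ed* and *Cpr47Ef*, did not exceed 7.88 and 2.57 on any array. *Cpr47Eg*, at the end of the cluster, read 8.46 and 6.91 in mutants and 10.6 and 10.7 in WT, which is at the limit. In 49A, *Cpr49Ae* passed and the other 7 members did not, 6 of them on no array.

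Band 65A, with 11 members the most populous here, holds *Lcp* genes, *Cpr* genes and *Acp65Aa* side by side. Only *Lcp65Aa*, named as a larval cuticle gene, was above the controls on all 4 arrays. *Acp65Aa*, an adult cuticle gene next to it, read 7.39 and 15.7 in mutants and 6.59 and 14.1 in WT. Both arrays numbered 2 were thus above the limit and both arrays numbered 1 below it. The log2 difference was 0.06, and its 95% interval, -0.5 to 0.62, leaves room for a change in either direction.

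Of the Tweedle genes, gene order in the reference (*D. melanogaster* release 6 plus ISO1 MT) placed 12 of the 24 in a single run, of which *TwdlP* and *TwdlL* were above the controls on all 4 arrays and 7 on none. *TwdlD*, the gene of the body shape mutant, was among those 7. A run of 4 on the X chromosome contributed *Twdlalpha* and a run of 3 contributed none. *TwdlT* passed and lies apart from the runs.

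**Figure D2:**
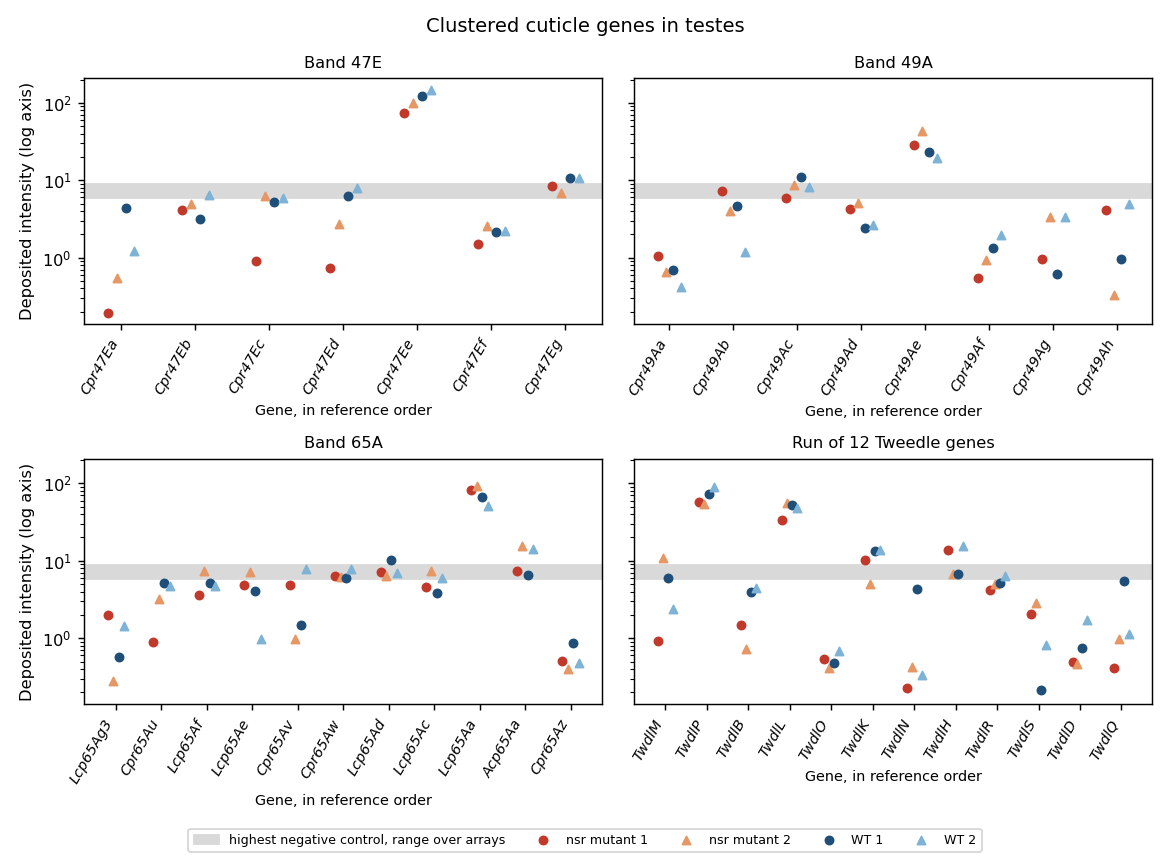
Deposited intensity (log axis) of each member on the 4 arrays, in reference gene order, for bands 47E, 49A and 65A and the run of 12 Tweedle genes. The grey band spans the highest negative controls, 5.88 to 8.92. *Cpr47Ee*, *Cpr49Ae*, *Lcp65Aa*, *TwdlP* and *TwdlL* lie above it on all 4 arrays.

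A difference between genotypes did not pass the test for any member: 0 of 102 had a limma adjusted p under 0.05, beside 0.00533% of all probe sets. At an unadjusted p under 0.05 there were 11 members, 8 of them lower in mutants, a share of 10.8% against 8.20% of all genes. Both mutant arrays were below both WT arrays in 27 members (26.5%), against 26.4% of all genes, and above them in 10 members (9.80%), against 9.15%. As deposited, both shares were close to the background. With the arrays centred on their medians the counts were 13 and 13 (12.7% each), against 19.5% and 21.8% of all genes. The median log2 difference, mutant minus WT on the log2(intensity + 16) scale, was -0.05 over the members and -0.06 over all genes. With the arrays centred, these medians became 0.02 and 0.01.

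**Figure D3:**
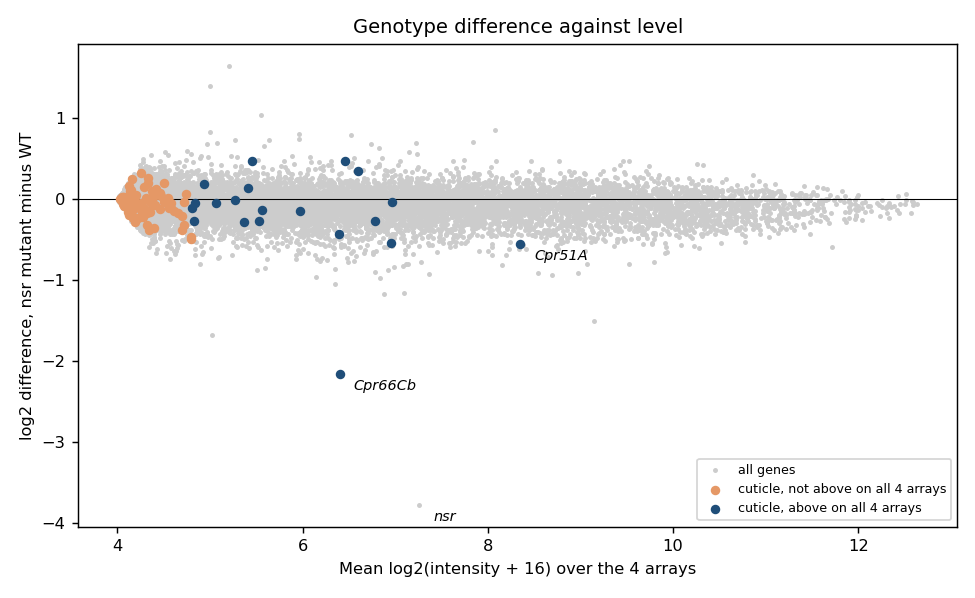
Log2 difference between *nsr* mutant and WT against the mean log2(intensity + 16) over the 4 arrays, for all genes (grey), the 20 cuticle genes above the controls on all 4 arrays (blue) and the other 82 (orange). *Cpr66Cb* stands at -2.16, below every other cuticle gene; the lowest point is *nsr* at -3.78.

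*Cpr66Cb* was the member furthest from equal levels. Its intensities were 20.9 and 27.5 in *nsr* mutants and 143.0 and 186.1 in WT. The 2 genotypes did not overlap, and the gaps between arrays of a genotype, 0.24 and 0.35 on the log2 scale, were small beside the gap between genotypes. The log2 difference was -2.16 ± 0.16 (SE, n = 2 per genotype; 95% interval -2.58 to -1.74), and the WT mean of the deposited intensities was 6.81 times the mutant mean. Of 11983 genes, only *nsr* had a lower log2 difference. The limma adjusted p was 0.355, which misses the threshold. It was 8.36e-11 with arrays centred on their medians, 0.0389 after quantile normalization and 1.11e-28 without dim probe sets. Pseudocounts of 1 and 64 gave 0.393 and 0.713, and the intensity trend gave 0.0979. In limma, the weight given to the spread of other probe sets is set by the prior degrees of freedom. These were 2.79 in the main fit, 24.42 with arrays centred and infinite without dim probe sets. The log2 difference was -2.09 with arrays centred and -2.16 without dim probe sets, so the far smaller p-values came without a larger difference. The log2 difference was negative in every alternative fit, from -2.72 with a pseudocount of 1 to -1.37 with a pseudocount of 64. In whole testes, fewer cells with a transcript and less of it per cell cannot be told apart, for this gene and for those that follow.

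3 further members had a log2 difference of 0.5 or more in size, each of them lower in mutants, so that 4 of 102 members reached this size beside 265 of 11983 genes. *Cpr51A* read 225.7 and 281.4 in mutants and 372.9 and 387.1 in WT, with no overlap. Its log2 difference was -0.56 ± 0.13 (SE, n = 2; limma adjusted p = 0.690). *Cpr51A* overlaps *CG30197* in the reference. The probe set of *CG30197* itself read 246.4 and 225.1 in mutants and 261.5 and 262.9 in WT. Its log2 difference was -0.15, also without overlap between genotypes.

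*Cpr47Ee* read 74.7 and 99.9 in mutants against 121.0 and 148.4 in WT, again without overlap. Its log2 difference was -0.55 ± 0.17 (SE, n = 2; limma adjusted p = 0.690). *Cpr100A* read 5.24 and 9.29 in mutants against 13.2 and 20.9 in WT. On *nsr* mutant 1 it was not above the controls, so its log2 difference of -0.50 leans on a value at the limit.

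**Figure D4:**
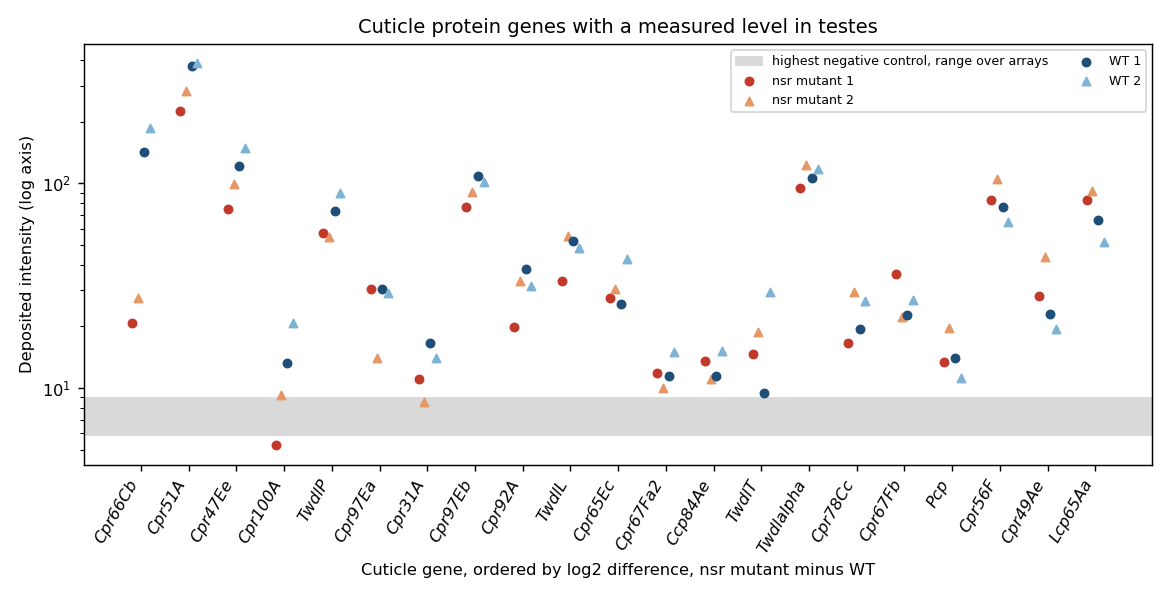
Deposited intensity (log axis) on each array of the 20 cuticle genes above the controls on all 4 arrays, and of *Cpr100A*, ordered by log2 difference. Circles and triangles are arrays 1 and 2 of *nsr* mutants (red, orange) and WT (dark and light blue). *Cpr66Cb*, at the left, reads 20.9 and 27.5 in mutants and 143.0 and 186.1 in WT.

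Among the 20 members with a measured level on all 4 arrays, mutant intensities were both lower than either WT intensity in 6 (30%) and both higher in 3 (15.0%). The same shares were 27.7% and 7.79% of all genes with a measured level. An unadjusted p under 0.05 was found for 7 of the 20 (35.0%), 5 of them lower in mutants, against 9.18% of measured genes, and for 4 of the other 82 members (4.88%), against 6.07% of the other genes. In the 9 members whose genotypes did not overlap, the difference between genotypes was larger than either gap between arrays of a genotype. These 9 were picked from the same values and the share over all genes was not taken, so this adds nothing to the lack of overlap. Besides *Cpr66Cb*, *Cpr51A* and *Cpr47Ee*, the lower ones of the 9 were *TwdlP*, *Cpr97Eb* and *Cpr31A*.

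*TwdlP* read 57.1 and 54.7 in mutants and 73.7 and 90.1 in WT, a log2 difference of -0.44 ± 0.12 (SE, n = 2; limma adjusted p = 0.690). *Cpr97Eb* read 76.9 and 91.0 in mutants and 108.8 and 101.1 in WT. *Cpr31A*, with 11.04 and 8.56 in mutants and 16.6 and 14.1 in WT, was close to the limit in mutants; the log2 difference of both was -0.28.

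The 3 members higher in mutants came from different bands. *Lcp65Aa* read 83.1 and 91.6 in mutants and 66.4 and 51.8 in WT (log2 difference 0.47 ± 0.13, SE, n = 2; limma adjusted p = 0.690). A second probe set of *Lcp65Aa* was near the limit throughout, at 8.58 and 4.84 against 12.1 and 6.57, and its log2 difference was -0.15, so the direction rests on the first.

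*Cpr49Ae* read 28.2 and 43.6 in mutants and 22.9 and 19.4 in WT, also a log2 difference of 0.47. *Cpr56F* read 82.6 and 105.0 in mutants and 76.4 and 64.6 in WT, a log2 difference of 0.34. *Cpr56F* overlaps *CkIIbeta2* in the reference, a gene whose own probe set differed by 0.04. None of the 3 passed the test.

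The 11 other members with a measured level had overlapping arrays. Their log2 differences ran from -0.29 for *Cpr97Ea* to 0.18 for *Pcp*. *Twdlalpha* read 94.7 and 123.2 in mutants and 105.8 and 117.2 in WT, and the 95% interval of its log2 difference, -0.42 to 0.34, leaves room for a modest change in either direction. In the reference it lies within *goe* and overlaps *CG32568*, whose own probe set read 943.6 and 759.9 in mutants and 770.3 and 803.1 in WT. *Cpr97Ea* read 30.5 and 14.0 in mutants and 30.4 and 29.1 in WT, so that *nsr* mutant 2 alone stood low. Its neighbour *Cpr97Eb* did not show the same drop on that array.

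*Pcp*, the pupal cuticle gene nested inside *Gart*, read 13.5 and 19.6 in mutants and 14.0 and 11.2 in WT. *Gart*, an enzyme gene of purine synthesis, had a log2 difference of 0.20, and *Pcp* one of 0.18. *TwdlT* was the least reproducible of the measured Tweedle genes, at 14.7 and 18.8 in mutants and 9.44 and 29.3 in WT. It lies within *RYa-R*, which was not analysed here. *TwdlL*, read by a probe set that may cover several transcripts of the gene, gave 33.5 and 55.6 in mutants and 52.1 and 48.2 in WT.

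*Ccp84Ae*, of the cluster at 84A, read 13.5 and 11.1 in mutants and 11.4 and 15.1 in WT. *Cpr78Cc* read 16.7 and 29.4 against 19.5 and 26.5, and *Cpr65Ec* 27.5 and 30.3 against 25.6 and 42.6. In none of the 3 did the genotypes separate. *Cpr92A*, with 19.8 and 33.5 in mutants and 38.2 and 31.4 in WT, had a log2 difference of -0.27 ± 0.19 (SE, n = 2).

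Band 67F held 2 measured members and a near-identical copy. *Cpr67Fb* read 35.9 and 22.4 in mutants and 22.6 and 26.9 in WT. *Cpr67Fa2* read 11.9 and 10.02 against 11.4 and 15.0 with its own probe set. A further probe set, shared by *Cpr67Fa2* and its copy *Cpr67Fa1* and outside the 102, read 32.7 and 30.1 against 34.5 and 36.7. *Cpr67Fa1*, with its own probe set, read 0.70 and 5.2 in mutants and 5.56 and 4.89 in WT, above the limit on no array. Which copy gave the signal of the shared probe set cannot be read from that probe set.

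The 28 members that passed on 1 to 3 arrays spanned intensities of 0.915 to 27.8 and log2 differences of -0.50 to 0.25. 6 of them passed on 3 arrays. *Cpr64Ab* read 3.44 and 12.5 in mutants and 18.1 and 15.0 in WT, *nsr* mutant 1 being below the limit. *TwdlH* read 13.9 and 6.66 against 6.85 and 15.5, high on 1 array of each genotype. *Cpr62Bc* reached 27.8 on WT 2 but 4.07 on WT 1, the widest spread of a genotype among the 28 members by raw intensity.

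Other genes that build, modify or break down cuticle were above the controls in a larger share than the cuticle proteins, and none of them passed the test between genotypes. Of 71 listed genes, 63 could be read from their own probe set, and 37 of these (58.7%) were above the controls on all 4 arrays, less than the 68.5% of all genes. 0 of 63 passed the limma test, and 5 (7.94%) had an unadjusted p under 0.05, beside 8.20% of all genes; 4 of the 5 were lower in mutants, as were 824 of the 983 among all genes. The median log2 difference was -0.08. Both mutant arrays were below both WT arrays in 20 (31.7%) and above in 5 (7.94%), beside 26.4% and 9.15% of all genes. All 6 chitinase-like growth factors (*Idgf1* to *Idgf6*), secreted proteins related to chitinases, were above the controls on all 4 arrays, with log2 differences between -0.20 and 0.11.

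*Cda4*, a chitin deacetylase gene, was the lowest of the 63, at 35.0 and 32.2 in mutants and 57.0 and 69.6 in WT (log2 difference -0.67 ± 0.12, SE, n = 2; limma adjusted p = 0.690). *kkv*, the chitin synthase of epidermis and tracheae, read 22.3 and 18.1 in mutants and 26.6 and 33.1 in WT, and *obst-E*, a chitin-binding protein gene, 11.5 and 9.03 against 15.6 and 17.7. *ftz-f1*, a nuclear receptor that directs cuticle genes in prepupae, read 41.8 and 40.8 against 59.6 and 57.9. These 4 are the genes of the 63 that had an unadjusted limma p under 0.05 and were lower in mutants. That their genotypes did not overlap follows largely from this choice, and no adjusted p passed the threshold.

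*Cht10*, a chitinase gene, was the one with an unadjusted p under 0.05 that was higher in mutants, at 14.8 and 16.0 against 8.76 and 8.87, the WT values lying at the limit. Of the regulators of moulting, *usp* was above the controls on all 4 arrays like *ftz-f1*, whereas *EcR*, *br*, *Hr3* and *grh* were on none.

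**Figure D5:**
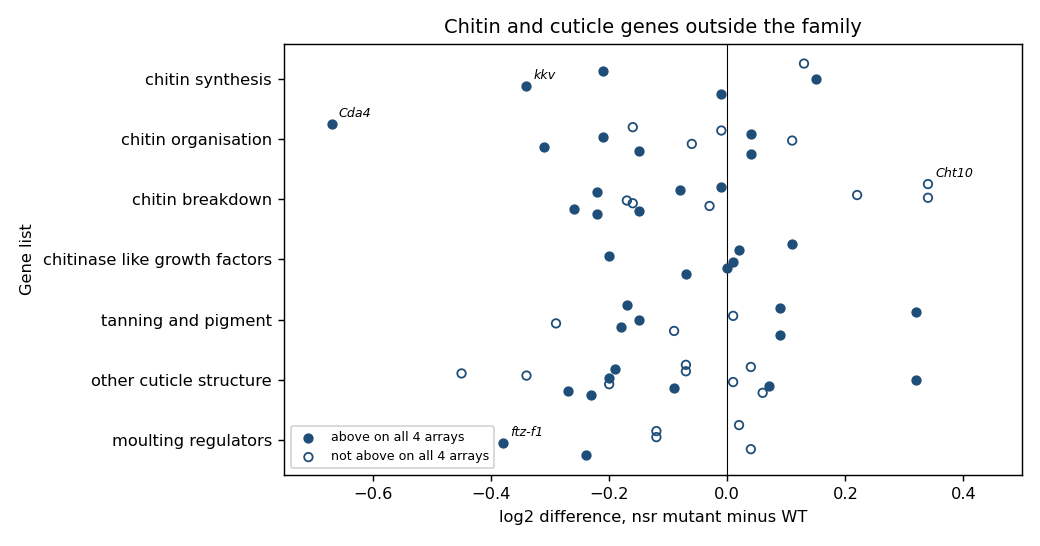
Log2 difference between *nsr* mutant and WT for 63 chitin and cuticle genes outside the family, by list. Filled points are genes above the controls on all 4 arrays and open points are not. *Cda4* lies lowest at -0.67, and no gene passed the test.

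Markers of cells that lay down cuticle or could adhere to a dissected testis were read on the same arrays. Of 4 epidermal genes, *tyn* was above the controls on all 4 arrays and *grh*, *sha* and resilin were on none; their summed intensity was 19.98 and 17.2 in mutants and 19.2 and 25.2 in WT. Both tracheal genes with a probe set were on none. Of 3 genes of the ejaculatory duct and bulb, *Dup99B* and *EbpIII* were above the controls on all 4 arrays and *EbpII* on 2. The list summed to 708.3 and 807.6 in mutants and 872.2 and 954.7 in WT. Nearly all of this came from *EbpIII*, at 687.7 and 773.1 in mutants and 823.5 and 939.1 in WT. *Dup99B* read 18.5 and 25.4 in mutants and 26.2 and 13.2 in WT.

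Of 7 accessory gland genes, *Acp36DE* was above on all 4 arrays, 5 on some and *Acp26Aa* on none, and the list summed to 94.6 and 143.7 in mutants and 92.8 and 111.3 in WT. 4 of 4 muscle genes were above, at sums of 173.6 and 166.1 in mutants and of 112.3 and 124.7 in WT, the higher values in mutants coming mainly from *Act88F* and *fln*. For the somatic cyst and hub cells, *eya* was above on all 4 arrays, *zfh1* on 3 and *tj* and *upd1* on none. The list summed to 136.6 and 87.2 against 134.4 and 128.0, mostly from *eya*, at 125.5 and 77.7 against 113.5 and 120.3. Fat body genes summed to 60.3 and 56.1 against 36.1 and 64.8, and haemocyte genes to 54.0 and 54.0 against 56.0 and 56.1. The part of such cells in the levels or differences of the cuticle genes was not tested.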

How the data were processed

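Total RNA of testes was amplified, labelled and hybridised to GeneChip *Drosophila* Genome 2.0 arrays, 2 per genotype; the labels and the methods name different labelling kits. The authors deposited 1 linear intensity per probe set and array. For probe summarisation, background correction and scaling, software and steps were not given in the sources used here. Values were analysed as deposited. 183 Affymetrix control probe sets were left out, leaving 18769; 70 of them with plant, tag or bacterial *trp* sequences set the background. Intensities say nothing of counting depth, and precision is limited by 4 arrays.

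Gene names came from the platform annotation, which gives 13647 probe sets a single gene, 402 several and 4720 none. All 102 members were found by gene ID in the RefSeq gene table (release 6 plus ISO1 MT). Genotypes were compared on log2(intensity + 16) with limma 3.58.1 in R 4.3.3 (lmFit, eBayes, no covariates, two-sided, Benjamini-Hochberg over 18769 probe sets, threshold 0.05). The code was first run on simulated data with changes placed in brighter probe sets only. The calling of changes at dim levels was thus not tested. SAM, named in the methods, was not used here. With 2 arrays against 2, no permutation test can pass the threshold, and none was run.

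Values are given for each member exceeding the highest negative control on all 4 arrays, each with an absolute log2 difference of at least 0.5, and the 3 nearest the limit on either side; further members named were picked after their values were seen. Members and lists were chosen with earlier results of these data known. Alternatives were pseudocounts of 1 and 64, arrays centred or quantile normalized, dim probe sets left out, an intensity trend, a replicate block, each array left out, other background limits and all probe sets of a gene. Listed genes without a probe set of their own were not analysed here.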

Additional observations from a re-analysis of the deposited data

How the results depend on the processing

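The count of cuticle genes past the limma threshold, 0, became 1, *Cpr66Cb*, with arrays centred on their medians and with quantile normalization. It also became 1 with probe sets below the median level left out (17 members then tested) and with the replicate block. In the same fits, 111, 3, 120 and 2 probe sets passed, against 1 in the main fit, of 18769 or, without dim ones, 9385. The count stayed 0 with the other pseudocounts, the intensity trend and all probe sets of a gene. The members' median log2 difference of -0.05 became -0.20 with a pseudocount of 1, 0.02 with arrays centred and -0.14 with dim probe sets left out. The median over all genes, -0.06, became -0.1, 0.01 and -0.08 in those fits. With 1 array left out, the members' median ran from -0.08 to -0.02 and that of all genes from -0.13 to 0.0. The 27 members with both mutant arrays below both WT arrays became 13 with arrays centred, 12.75% beside 19.5% of all genes. They became 5 of the 17 left without dim probe sets, and 39 to 50 with 1 array left out, where fewer arrays have to separate. For these last settings the share over all genes was not taken, so the counts cannot be set against a background. The 20 members above the controls became 14 with 2 times the highest negative control as limit and 32 with the 95th percentile of the controls. They became 48 when 1 array sufficed, and 20 to 24 with 1 array left out. When 1 array sufficed, 52.9% of members and 19.4% of all genes still did not pass. For the other limits the share over all genes was not taken.

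Of 228 values for 21 named members, 204 kept direction and side of the threshold, 4 were those of *Cpr66Cb* that newly passed, and 20 turned direction, none past the threshold. With arrays centred, *Ccp84Ae* turned to 0.03, *Cpr78Cc* to 0.06, *TwdlT* to 0.02 and *Twdlalpha* to 0.03, and with quantile normalization to 0.03, 0.07, 0.04 and 0.06. The rest turned with 1 array left out, where *Ccp84Ae* ran from -0.14 to 0.05, *Cpr65Ec* from -0.38 to 0.11, *Cpr67Fb* from -0.09 to 0.35, *Cpr78Cc* from -0.25 to 0.22, *Cpr97Ea* from -0.61 to 0.02, *TwdlL* from -0.42 to 0.12, *TwdlT* from -0.47 to 0.36 and *Twdlalpha* from -0.20 to 0.13. The cause was not tested.

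Same-numbered arrays deviated together with r = 0.15 over all probe sets; 2 numbers do not establish a pairing. With the replicate block, *Cpr66Cb* kept -2.16 with a limma adjusted p of 0.0451, and 2 probe sets of 18769 passed instead of 1. With dim probe sets left out the prior degrees of freedom of limma were estimated as infinite, so the spread of each probe set was set by the others alone. With 1 array left out, the lone array of a genotype is assumed to vary like the other genotype's. No sample depth is known, and for the 54 members on no array above the controls neither a level nor a difference could be measured.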

Other observations

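Probe sets shared by several genes lay outside the 102. Of the 6 that include a cuticle gene, that of *Obp57d* and *Cpr57A* read 13.2 and 10.4 in mutants and 5.21 and 6.63 in WT, above the controls on both mutant arrays and on neither WT array, with a log2 difference of 0.34 (limma adjusted p = 0.690); a second probe set of the same pair was above on no array. The shared sets of *Ccp84Aa* and *Ccp84Ab*, of *Cpr65Ax1* and *Cpr65Ax2*, and of *Lcp65Ag1* and *Lcp65Ag2* were above on none.

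Around *Cpr66Cb*, the nearest genes in reference order with a probe set were *CG13670* and *CG34462* on one side and *Pex2*, *Prim1* and *CG7083* on the other. Their log2 differences were -0.14, 0.28, -0.12, -0.09 and 0.02, beside -2.16 for *Cpr66Cb*. *Pex2*, *Prim1* and *CG7083* were above the controls on all 4 arrays.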
